A study of Mus musculus with 26 samples.

Results

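The genes described here are 10 imprinted genes of the mouse, H19, Igf2, Peg3, Peg10, Mest, Meg3, Rian, Dlk1, Plagl1 and Cdkn1c, chosen by name from the 55291 genes of the deposited count table. All 10 were found in the table. Their poly(A) RNA was measured by RNA-seq in R1 mouse embryonic stem cells (ESCs), a line kept in LIF on gelatin, in 26 libraries that form 13 groups of 2 replicates. The study asked how the transcription factor DUX, and a super-enhancer (SE) at the Tdpoz locus, act when ESCs are driven toward a state like that of the early embryo.

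The groups were untreated ESC and DMSO-treated ESC (duration not given in the labels), ESC given 0.53 µM retinoic acid (RA) for 48 h, and ESC kept for 4 days in 4 nM PlaB (pladienolide B, which blocks splicing). Overexpression (OE) lines carried ZSCAN4, DUX or the mutant DUXR70A and were given 4 µg/mL doxycycline for 24 h. DUX knockdown (KD) cells were sequenced with RA and with PlaB, and 2 further libraries were labelled DUX KD ZSCAN4 OE. Cells with the SE deleted (SE KO) were sequenced with RA, with PlaB and with DUX OE. Uninduced transgene lines, and KD or KO cells without treatment, were not analysed here, so a line and its induction cannot be told apart. The labels do not say how many clones stand behind a line or whether replicates were separate cultures, so p-values measure only the spread between these samples.

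Several labels need care. For SE KO RA replicate 1 the genotype label reads WT while the title reads SE KO, and results are also given without it. The libraries labelled DUX KD ZSCAN4 OE carry the treatment label "no" and no time. Zscan4c, the Zscan4 gene checked, had 12 and 15 counts there (0.779 and 1.13 CPM), below the 5.73 and 6.13 CPM of ESC and the 99.98 and 103 CPM of ZSCAN4 OE. That value goes against the ZSCAN4 OE in their label, although whether reads of the transgene are counted under Zscan4c is not given in the sources used here. Duxf3, the Dux gene in the table, had 55 and 48 counts in DUX OE but 0 and 0 in the libraries labelled DUXR70A OE. Whether transgene reads are counted under Duxf3 is likewise not given. DUX OE held 4.01 and 3.24 CPM of Duxf3, under the 9.25 and 8.21 CPM of PlaB. Duxf3 counts alone therefore cannot show whether either transgene was expressed. Zscan4c, of a gene cluster that the paper links to DUX-induced SEs, was at 811 and 810 CPM in DUX OE, far above ESC. In the libraries labelled DUXR70A OE it was at 0.107 and 0.0628 CPM, below ESC. The RA libraries held 49 and 59 Duxf3 counts, and those with knockdown 16 and 6. For PlaB the counts were 191 and 181 without knockdown but 1 and 0 with it, and they were 27 and 17 in ZSCAN4 OE but 1 and 0 in the libraries labelled DUX KD ZSCAN4 OE. With SE KO the Duxf3 counts were 2 and 10 under RA, 38 and 45 under PlaB and 55 and 39 under DUX OE. The SE deletion itself was not checked. Library totals lay between 14401452 and 39402840 counts (median 18276934). Levels are given in CPM, the counts of a gene relative to its library total after TMM scaling, and 3 counts, the floor used below, were worth between 0.0796 and 0.226 CPM. All 8 ESC markers listed were above that floor in every library.

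Imprinted genes are transcribed mainly from 1 parental copy, because DNA methylation laid down in the egg or the sperm marks a control region that the embryo then keeps. H19 and Igf2 share such a region on chromosome 7, where the unmethylated maternal copy yields the H19 RNA and the paternal copy yields the growth factor IGF2. Dlk1, a paternally expressed ligand-like transmembrane protein, lies in 1 domain on chromosome 12 with the maternally expressed noncoding RNAs Meg3 and Rian. Peg10, derived from a retrotransposon and needed for the placenta, Mest, a hydrolase-like protein, Peg3, a large zinc finger protein, and Plagl1, a zinc finger transcription factor, are expressed from the paternal copy. Cdkn1c encodes p57, an inhibitor of cyclin-dependent kinases, and is expressed from the maternal copy. Counts per gene do not separate the 2 parental copies, so nothing here speaks of which copy was transcribed.

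In the mm10 coordinates of the table, H19 spans chr7:142575529-142578143, Igf2 chr7:142650766-142666816 and Cdkn1c chr7:143458339-143461050, all on the minus strand. Peg3 spans chr7:6703892-6730431 on the minus strand. Peg10 (chr6:4747306-4760517) and Mest (chr6:30723547-30748465) are on the plus strand of chromosome 6. Dlk1 (chr12:109452823-109463336), Meg3 (chr12:109541001-109571726) and Rian (chr12:109603808-109661716) follow each other on the plus strand of chromosome 12, and Plagl1 spans chr10:13060504-13131694 on the plus strand. Peg3, Peg10 and Dlk1 overlap no other annotated gene. On the opposite strand, Mest overlaps Copg2 and Gm44296, Igf2 overlaps Igf2os, Cdkn1c Gm44732, H19 Gm27483 and Gm27786, Meg3 Gm26906 and Plagl1 Gm27741. The strand setting of the counting is not given in the sources used here, so reads of these 6 genes and of their opposite-strand neighbours cannot be told apart. On the same strand, Igf2 overlaps Gm49394, and Rian overlaps 19 genes, nearly all of them small RNAs.

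Promoter sequence of the members is shown because ZFP57, the factor that keeps the methylated copy of imprinted control regions, reads the short motif TGCCGC where its CpG is methylated. Its reverse complement, GCGGCA, was searched as well. RefSeq windows on GRCm38.p6, from 250 bases before to 50 after each start, were found for 7 of the 10 genes, with 13 windows in all. The motif was in 5 of these 13 windows, some of which overlap, against 11.6% of all 32851 promoter windows of that length, and the 5 belonged to 4 genes. The 250 bases before the start are printed for Mest and Plagl1, called in several comparisons below, and for Dlk1 and Meg3, a pair from 1 domain whose levels lay far apart. The motif is in capitals and all else is in lower case.
Mest (chr6:30737800-30738049, plus strand): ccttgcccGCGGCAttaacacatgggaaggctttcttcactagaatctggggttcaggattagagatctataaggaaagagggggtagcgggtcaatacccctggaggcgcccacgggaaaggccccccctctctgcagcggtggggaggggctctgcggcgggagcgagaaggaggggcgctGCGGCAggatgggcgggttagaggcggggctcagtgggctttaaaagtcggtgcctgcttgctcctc
Plagl1 (chr10:13090582-13090831, plus strand): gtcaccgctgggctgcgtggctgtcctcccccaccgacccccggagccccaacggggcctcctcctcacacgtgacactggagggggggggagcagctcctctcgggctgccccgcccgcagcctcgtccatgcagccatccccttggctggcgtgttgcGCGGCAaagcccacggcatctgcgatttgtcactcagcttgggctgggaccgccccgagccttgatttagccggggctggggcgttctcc
Meg3 (chr12:109540746-109540995, plus strand): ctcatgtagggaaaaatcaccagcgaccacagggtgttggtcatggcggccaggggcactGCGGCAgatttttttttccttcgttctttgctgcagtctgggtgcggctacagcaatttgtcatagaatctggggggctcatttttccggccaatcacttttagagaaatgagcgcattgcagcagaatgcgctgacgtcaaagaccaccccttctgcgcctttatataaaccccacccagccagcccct
Dlk1 (chr12:109452573-109452822, plus strand): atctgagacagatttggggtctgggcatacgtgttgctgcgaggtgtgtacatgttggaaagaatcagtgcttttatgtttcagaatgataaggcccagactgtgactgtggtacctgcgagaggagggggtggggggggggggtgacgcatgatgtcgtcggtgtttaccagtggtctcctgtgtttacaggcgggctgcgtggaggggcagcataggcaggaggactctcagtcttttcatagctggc
The Mest window printed had 2 matches while another Mest window, starting at position 30733256, had 0. The Meg3 window printed had 1 match while another, starting at position 109545148, had 0. Plagl1 had 1 match and Dlk1 had 0. Over the full windows of those printed, Plagl1 had 26 CpG, Mest 17, Meg3 13 and Dlk1 9, against a median of 7 over all windows. The other Mest and Meg3 windows named had 8 and 1 CpG. A match is a string of letters and not a bound site.

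The 10 genes covered a wide range of levels. Per kb of exon, Peg10 led in every group but PlaB, with group means between 0.878 CPM per kb in PlaB and 169.9 in RA. Mest lay between 5.15 and 26.5, Cdkn1c between 1.02 and 21.7, and Peg3 between 3.54 and 9.94 CPM per kb. The highest group means were 0.0637 CPM per kb for Rian and 0.0180 for Meg3. Both libraries were at or under 3 counts in 8 of 13 groups for Meg3, 7 for Igf2, 5 for H19 and 2 for Rian, so Meg3 and Igf2 were at or under that floor in most groups.

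How far a gene moved across the 13 groups also differed. The range of log2 CPM between the lowest and highest group mean was 7.58 for Peg10, 6.75 for H19 and 6.72 for Dlk1, wider than in 98.7%, 97.8% and 97.8% of the genes compared. It was 5.43 for Igf2, 4.38 for Rian, 4.35 for Cdkn1c, 3.88 for Plagl1 and 2.37 for Mest. Peg3, with a range of 1.49, moved less than most genes (percentile 24.7).

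**Figure D1:**
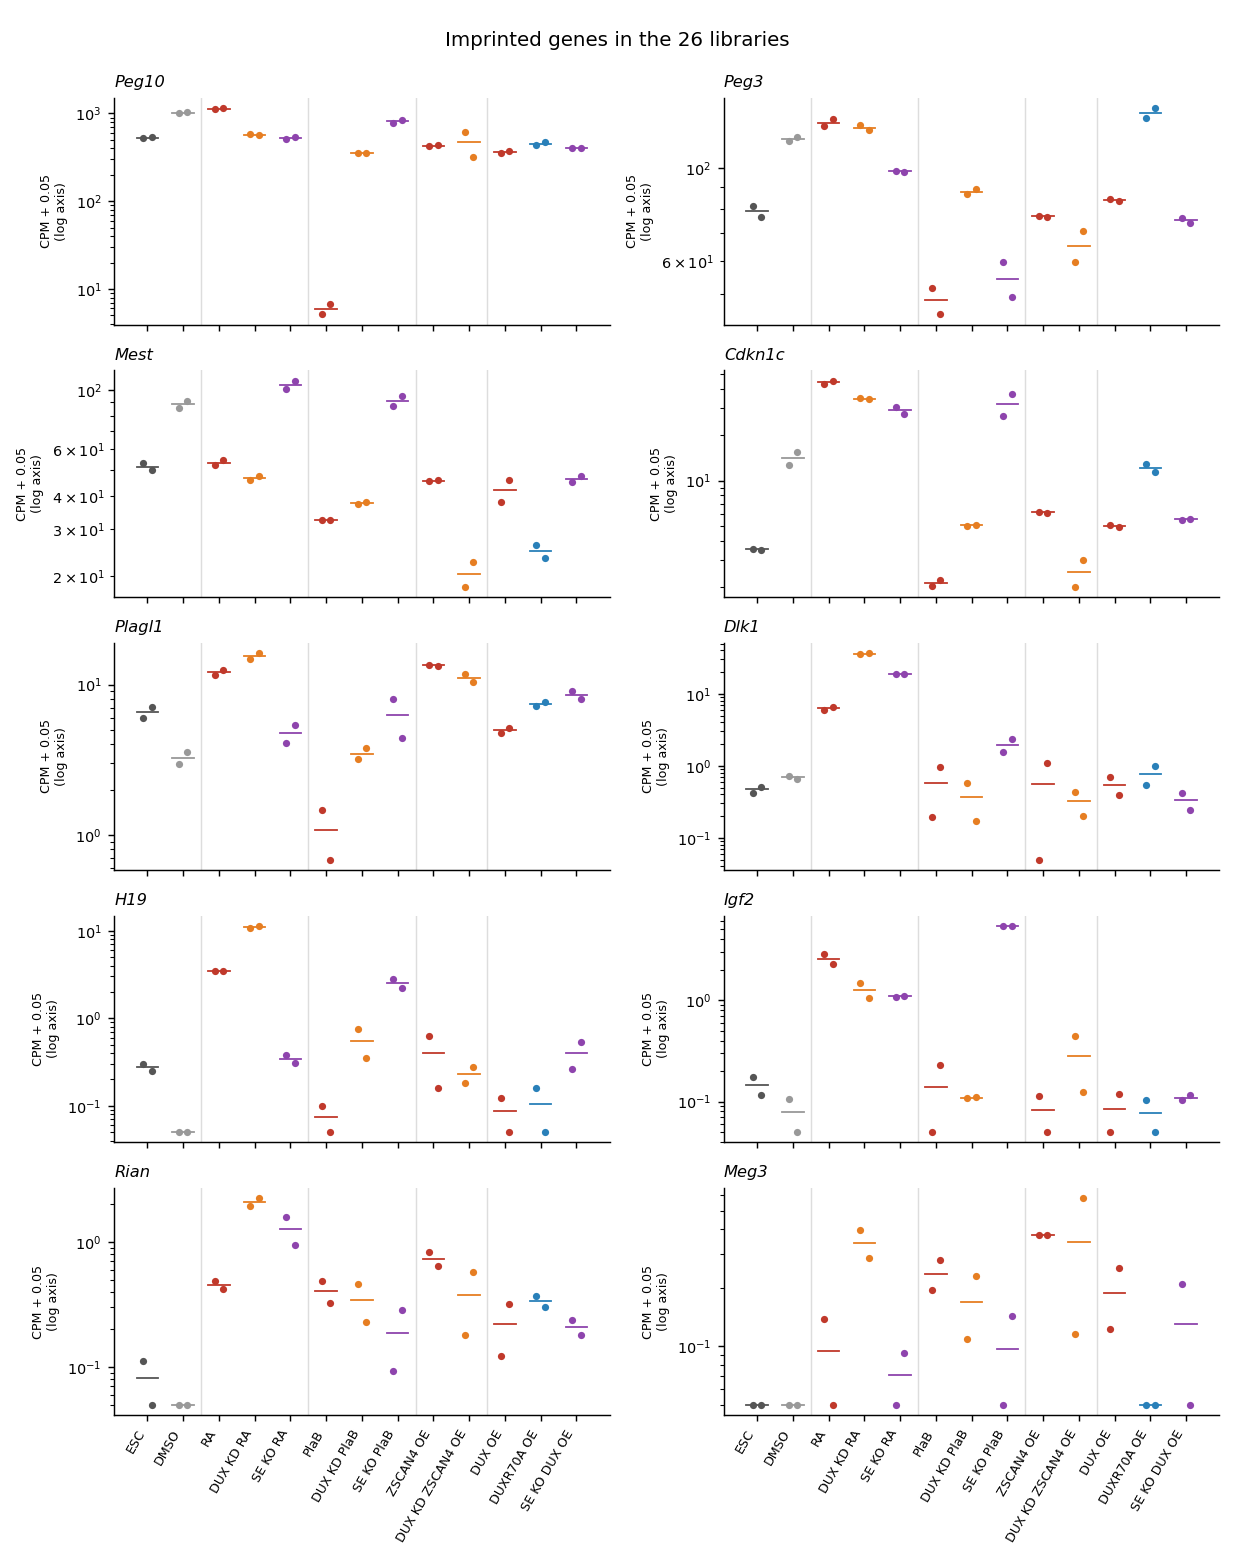
Levels of the imprinted genes in each of the 26 libraries, grouped by condition, as CPM + 0.05 on a log axis, with 1 point per library and a line at each group's mean. Peg10 stays between 319 and 1147 CPM in all groups but PlaB, where both libraries lie under 7 CPM, while Dlk1 is highest in the 3 groups given RA, Rian in DUX KD RA and SE KO RA, H19 in DUX KD RA, RA and SE KO PlaB, and Igf2 in SE KO PlaB and RA.

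Peg10 was highest in RA (1118 and 1147 CPM) and DMSO (1012 and 1032), followed by SE KO PlaB (769 and 852) and DUX KD RA (582 and 564). ESC (525 and 533 CPM) and SE KO RA (515 and 538) overlapped. The 2 libraries labelled DUX KD ZSCAN4 OE, at 619 and 319 CPM, spread wider than any other pair and overlapped, among others, those labelled DUXR70A OE (437 and 472) and ZSCAN4 OE (421 and 442). SE KO DUX OE (403 and 408 CPM), DUX OE (354 and 374) and DUX KD PlaB (352 and 354) came next, and DUX OE and DUX KD PlaB all but touched. PlaB stood alone at the bottom with 5.09 and 6.63 CPM.

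Cdkn1c was highest in RA (43.3 and 45.3 CPM), and lower in DUX KD RA (34.8 and 34.5), SE KO PlaB (26.7 and 37.2) and SE KO RA (30.4 and 27.4). SE KO PlaB overlapped both DUX KD RA and SE KO RA. DMSO (12.6 and 15.3 CPM) and the libraries labelled DUXR70A OE (12.8 and 11.4) overlapped, and the other groups lay at 6.21 CPM or less, down to 1.99 and 2.18 in PlaB.

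Mest was highest in SE KO RA (101 and 108 CPM), SE KO PlaB (86.7 and 94.9) and DMSO (85.3 and 91.03), of which the latter pair overlapped. It was lowest in the libraries labelled DUXR70A OE (26.1 and 23.4 CPM) and in those labelled DUX KD ZSCAN4 OE (18.1 and 22.5), and most neighbouring groups between them overlapped. Peg3 kept between 44.7 CPM in a PlaB library and 139 in a DUXR70A OE library, with RA (126 and 131) overlapping DUX KD RA (126 and 123). Plagl1 was highest in DUX KD RA (14.8 and 16.1 CPM), ZSCAN4 OE (13.5 and 13.2) and RA (11.5 and 12.5), and lowest in PlaB (1.40 and 0.635).

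Dlk1 passed 2.29 CPM only in the 3 groups given RA. DUX KD RA held 35.6 and 36.5 CPM, SE KO RA 19.03 and 18.8 and RA 5.90 and 6.52, followed by SE KO PlaB with 1.52 and 2.29. These 4 groups did not overlap each other, and the 9 lower ones overlapped along their order. H19 followed a like order at the top but with SE KO RA far down. DUX KD RA (10.7 and 11.3 CPM), RA (3.44 and 3.40) and SE KO PlaB (2.78 and 2.19) led, and SE KO RA held 0.326 and 0.254. Igf2 led in SE KO PlaB (5.38 and 5.36 CPM) and RA (2.82 and 2.24), with DUX KD RA (1.44 and 1.002) and SE KO RA (1.02 and 1.06) overlapping below. Rian was highest in DUX KD RA (1.90 and 2.18 CPM) and SE KO RA (1.54 and 0.889), and Meg3 had at most 7 counts in any library and failed the filter on low counts, so it entered no test.

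Retinoic acid against DMSO asked what RA alone did to these genes. Of the 9 members tested, 6 rose and 0 fell. Across all genes tested, 31% were called in this comparison and 20.6% were called higher. H19, Igf2 and Rian rose from the floor, Dlk1 rose 9.68-fold, Plagl1 3.75-fold and Cdkn1c 3.18-fold. A gene was called where its adjusted p was under 0.05 and its log2 fold change reached 1 in either direction, and every adjusted p here comes from edgeR (quasi-likelihood F-test, Benjamini-Hochberg).

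H19 had 78 and 73 counts in the RA libraries and 0 and 0 in DMSO, so it was at least 20.4-fold higher when DMSO is set at 3 counts per library (adjusted p = 2e-09). Igf2 had 64 and 48 counts in RA and 1 and 0 in DMSO, a count ratio of 90.9 with an exact 95% counting interval of 15.99 to 3623 (adjusted p = 4.15e-08). Rian, with 10 and 8 counts against 0 and 0, was at least 2.43-fold higher (adjusted p = 0.00102). For all 3 RNAs both RA libraries were above both DMSO libraries. With only these 2 groups fitted, Rian fell below the filter on low counts and 5 members were called. Intervals on count ratios and floors cover counting error only.

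Dlk1 rose from 0.681 and 0.603 CPM in DMSO to 5.90 and 6.52 in RA (log2 fold change 3.26, SE 0.51, adjusted p = 1.51e-05). The cell cycle inhibitor gene Cdkn1c rose from 12.6 and 15.3 to 43.3 and 45.3 CPM (log2 fold change 1.67, SE 0.14, adjusted p = 1.21e-11). Plagl1 rose from 2.89 and 3.51 to 11.5 and 12.5 CPM (log2 fold change 1.90, SE 0.23, adjusted p = 1.99e-08). No RA library overlapped a DMSO library for these genes. Set against untreated ESC in place of DMSO, Plagl1 kept its direction at a log2 fold change of 0.89, under the size threshold.

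Peg10, Peg3 and Mest did not share this rise. Mest lay at 52.1 and 54.4 CPM in RA and 85.3 and 91.03 in DMSO, a difference that passed the p threshold but not that of size (log2 fold change -0.73, SE 0.09, adjusted p = 9.71e-08). Peg10 (log2 fold change 0.15, adjusted p = 0.501) and Peg3 (log2 fold change 0.13, adjusted p = 0.192) did not pass. Over the 9 members the median log2 fold change was 1.90, or 1.67 with H19 and Rian at their bounds, against 0.105 over all genes tested.

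Markers of other cell types moved with RA. The summed level of 9 primitive endoderm markers was 11.2 to 13.3 CPM in DMSO and 105 to 109 in RA, with all 9 above the floor in RA, and Foxa2 at 0 counts in DMSO. Amn, of that list, was lower in RA (0.748 against 2.23 CPM). The 12 fibroblast markers summed to 61.7 to 62.5 CPM in DMSO and 135 to 155 in RA, with 4 against 7 to 9 of them above the floor. Among these, Lum and S100a4 were at 0 counts in both groups. Neuroectoderm markers summed to 44.5 to 45.5 CPM in DMSO and 61.01 to 63.6 in RA. Nes made up most of both sums (30.8 CPM in DMSO, 52.2 in RA). Within that list Pax6 was higher in RA (2.15 against 1.45 CPM) and Sox1 lower (4.03 against 4.64). The part of all these markers in the rise of the imprinted genes was not tested. In bulk RNA, fewer cells of a type and less RNA per cell cannot be told apart.

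Pladienolide B against DMSO gave the largest fall fitted for any of the members. Peg10 was 175-fold lower in PlaB, and Cdkn1c 6.70-fold, Plagl1 3.14-fold, Mest 2.72-fold and Peg3 2.43-fold lower, while only Rian was called higher. That made 5 lower and 1 higher of 9 tested, in a comparison in which 58.9% of all genes were called (26.6% lower, 32.3% higher). The median over the 9 members was -1.28 against 0.224 over all genes, so the fall of the members ran against the shift of all genes, which was 0.376 under RLE and 0.481 under library-size scaling.

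Peg10 had 1012 and 1032 CPM in the DMSO libraries and 5.09 and 6.63 (105 and 146 counts) in PlaB (log2 fold change -7.44, SE 0.26, adjusted p = 2.01e-14). Both PlaB libraries were far under all other 24 libraries, of which the lowest held 319 CPM. Cdkn1c fell from 12.6 and 15.3 to 1.99 and 2.18 CPM (log2 fold change -2.74, SE 0.18, adjusted p = 1.61e-14). The libraries of the 2 groups did not overlap.

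Mest went from 85.3 and 91.03 CPM in DMSO to 32.3 and 32.5 in PlaB (log2 fold change -1.44, adjusted p = 2.29e-14). Peg3 went from 116 and 118 to 51.8 and 44.7 CPM (log2 fold change -1.28, adjusted p = 5.78e-14), and Plagl1 from 2.89 and 3.51 to 1.40 and 0.635 (log2 fold change -1.66, adjusted p = 2.08e-05). No PlaB library overlapped a DMSO library for these 3 genes. With untreated ESC as the control, the log2 fold changes were -0.71 for Peg3, -0.66 for Mest and -0.74 for Cdkn1c, and these genes were then not called.

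The genes near the floor gave little. Rian had 9 and 6 counts in PlaB and 0 and 0 in DMSO, at least 2.12-fold higher (adjusted p = 0.00127). When only these 2 groups were fitted, Rian fell below the filter on low counts and was not tested, so that 0 members were called higher. H19 (1 and 0 counts against 0 and 0) and Igf2 (0 and 4 against 1 and 0) were too few for a difference to be detectable at this depth. For Dlk1 the PlaB replicates, at 0.145 and 0.908 CPM, lay on both sides of the DMSO libraries (adjusted p = 0.769). The 10 trophectoderm markers, led by Krt8 and Krt18, summed to 483 to 509 CPM in PlaB and 114 to 115 in DMSO. Within that list, Tfap2c (32.7 against 81.9 CPM) and Eomes (4.21 against 12.2) were lower in PlaB. The part of these markers in these results was not tested.

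**Figure D2:**
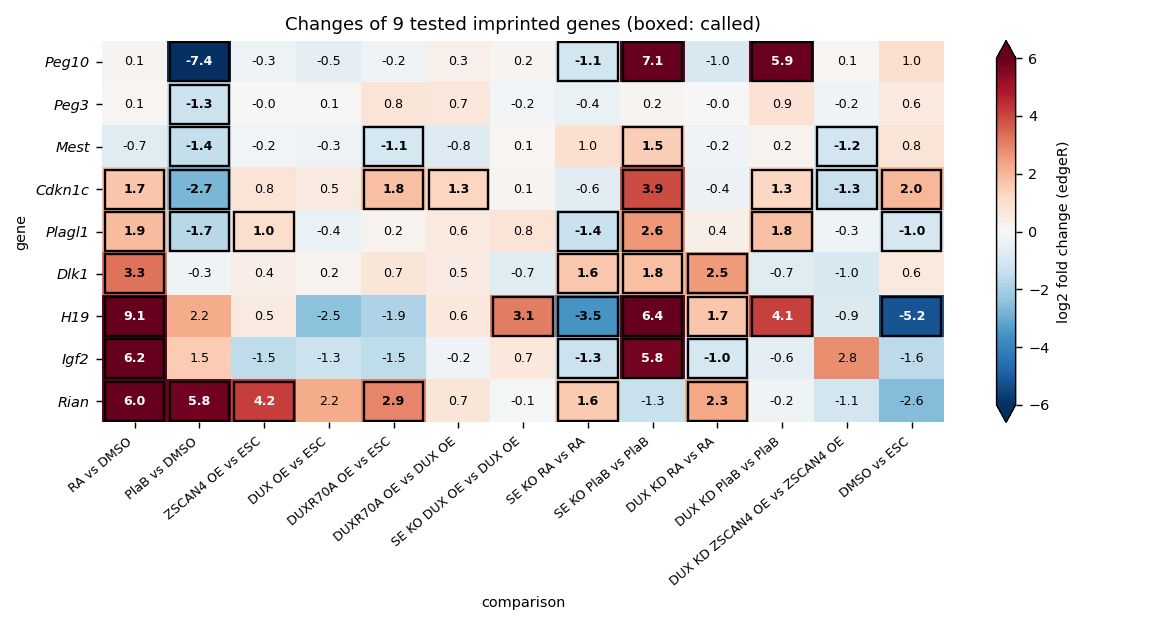
Log2 fold changes of the tested members in the 13 comparisons, from the edgeR fit of all 26 libraries, with called effects boxed and in bold. The colour scale ends at 6 in either direction. Peg10 is at -7.44 in PlaB against DMSO and at 7.11 and 5.91 in SE KO PlaB and DUX KD PlaB against PlaB, while the DUX OE comparison with ESC holds no called effect.

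Knockdown of DUX under PlaB was compared with PlaB alone. Without knockdown cells free of PlaB, whether the PlaB effect depends on DUX was not tested. Peg10, which fell furthest in PlaB, was 60.3-fold higher in DUX KD PlaB than in PlaB. It lay at 352 and 354 CPM against 5.09 and 6.63 (log2 fold change 5.91, SE 0.25, adjusted p = 3.7e-13), still under the 1012 and 1032 CPM of DMSO. Plagl1 was 3.35-fold and Cdkn1c 2.41-fold higher, and H19 rose from the floor. In all, 4 members rose and 0 fell, where 54.9% of all genes were called (26.1% higher, 28.8% lower). The member median was 0.87 against -0.135 over all genes tested.

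Plagl1 was at 3.13 and 3.71 CPM after knockdown against 1.40 and 0.635 in PlaB alone (log2 fold change 1.75, adjusted p = 9.92e-06). Cdkn1c was at 4.95 and 5.08 CPM after knockdown against 1.99 and 2.18 in PlaB alone (log2 fold change 1.27, adjusted p = 2.6e-06). Both genes kept the knockdown libraries above the PlaB libraries without overlap. H19 had 12 and 5 counts after knockdown against 1 and 0 in PlaB alone, a count ratio of 21.5 with an exact 95% counting interval of 3.38 to 900.4 (adjusted p = 0.000746), and its fitted log2 fold change moved from 4.10 to 6.33 without PlaB replicate 1. With only the 2 groups fitted it fell below the filter on low counts, which left 3 members called. Peg3 passed the p threshold at a smaller size (86.7 and 89.00 CPM against 51.8 and 44.7, log2 fold change 0.87, adjusted p = 5.52e-10).

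Deletion of the SE under PlaB was compared with PlaB alone in the same way. Replicates of SE KO PlaB differed more than those of any other group (chi-square per degree of freedom 30.2, against 1.75 in DUX KD PlaB). Because the fit pooled the spread over all 13 groups, SE and adjusted p may understate the spread of this pair. Of the 9 members tested, 7 rose and 0 fell (52% of all genes called, 25.9% higher and 26.1% lower), with a member median of 2.62 against -0.0675 over all genes tested. Peg10 was 138-fold higher in SE KO PlaB than in PlaB, Cdkn1c 15.3-fold, Plagl1 6.08-fold, Dlk1 3.61-fold and Mest 2.80-fold, and the linked genes H19 and Igf2 rose from near the floor.

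Peg10 had 769 and 852 CPM in SE KO PlaB against 5.09 and 6.63 in PlaB (log2 fold change 7.11, SE 0.25, adjusted p = 4e-14). Cdkn1c had 26.7 and 37.2 CPM against 1.99 and 2.18 (log2 fold change 3.93, SE 0.17, adjusted p = 7.48e-19), above both DMSO libraries too. For both genes the SE KO libraries lay far above both PlaB libraries. Mest had 86.7 and 94.9 CPM against 32.3 and 32.5 (log2 fold change 1.49, adjusted p = 1.21e-14), and Plagl1 8.02 and 4.38 against 1.40 and 0.635 (log2 fold change 2.62, adjusted p = 1.01e-09).

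H19 and Igf2 rose together in this comparison. H19 had 64 and 47 counts in SE KO PlaB and 1 and 0 in PlaB, a count ratio of 106 with an exact 95% counting interval of 18.7 to 4242 (adjusted p = 6.96e-09). Igf2 had 124 and 115 counts against 0 and 4 in PlaB, a count ratio of 57.3 with an exact 95% counting interval of 22.1 to 212 (adjusted p = 2.16e-10), and its fitted log2 fold change moved from 5.75 to 9.70 without PlaB replicate 2, the only PlaB library with any Igf2 count. Igf2 reached its highest level of all groups here. Dlk1 had 1.52 and 2.29 CPM against 0.145 and 0.908 (log2 fold change 1.81, adjusted p = 0.0101). That value leaned on single libraries: it was 1.13 without PlaB replicate 1 (adjusted p = 0.0937) and 3.65 without PlaB replicate 2. Peg3 (log2 fold change 0.18, adjusted p = 0.082) and Rian (log2 fold change -1.34, adjusted p = 0.129) did not pass.

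Trophectoderm markers summed to 147 to 154 CPM in DUX KD PlaB and 208 to 329 in SE KO PlaB, under the PlaB level. Krt8 and Krt18 made up most of that level in PlaB. Within the list, Eomes and Tfap2c were higher than in PlaB in both groups. Hand1 (16.4 against 1.38 CPM) and Cdx2 were also higher in SE KO PlaB. Primitive endoderm markers summed to 40.2 to 43.9 CPM in PlaB, 41.3 to 44.6 in DUX KD PlaB and 148 to 157 in SE KO PlaB, where all 9 were above the floor. The like sums of PlaB and DUX KD PlaB hid opposite moves. Cubn (14.9 against 1.90 CPM), Dab2, Gata4 and Foxa2 were higher in DUX KD PlaB. Pdgfra (3.09 against 13.6 CPM), Gata6, Sox17, Sox7 and Amn were lower there, and Amn was lower in SE KO PlaB too. The part of these markers in the rise of H19, Igf2, Dlk1 and Cdkn1c in SE KO PlaB was not tested. The comparisons of PlaB with DMSO, DUX KD PlaB and SE KO PlaB share the 2 PlaB libraries, so their Peg10 values are not independent of each other.

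The same knockdown was also made under RA. DUX KD RA against RA had 3 members higher and 1 lower, with 11% of all genes called (6.44% higher, 4.56% lower), and the members' median of -0.04 lay beside 0.0151 over all genes tested. Dlk1 was 5.80-fold, Rian 5.01-fold and H19 3.22-fold higher, and Igf2 2.07-fold lower. Within 1 domain on chromosome 7, H19 and Igf2 were thus called in opposite directions, although the Igf2 call is weak.

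Dlk1 rose from 5.90 and 6.52 CPM with RA alone to 35.6 and 36.5 with knockdown (log2 fold change 2.53, SE 0.34, adjusted p = 7.08e-06). Rian, in the same domain, had 10 and 8 counts with RA alone and 33 and 37 with knockdown (log2 fold change 2.30, SE 0.55, adjusted p = 0.00142). H19 went from 78 and 73 to 186 and 192 counts (log2 fold change 1.68, SE 0.32, adjusted p = 0.000123). For these genes all knockdown libraries were above all RA libraries. Igf2 had 64 and 48 counts against 25 and 17 (log2 fold change -1.05, adjusted p = 0.0469), a call lost under DESeq2 (adjusted p = 0.106), with replicate number as a block (adjusted p = 0.053), without the low-count filter, under library-size scaling and without any 1 of the 4 libraries (log2 fold changes between -1.33 and -0.81). Peg10 lay at 582 and 564 CPM against 1118 and 1147 and fell just short of the size threshold (log2 fold change -0.98, adjusted p = 0.000403).

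In SE KO RA against RA, 4 members were lower and 2 higher of 9 tested, where 17.6% of all genes were called (11% lower, 6.58% higher). H19 was 11.8-fold, Plagl1 2.56-fold, Igf2 2.43-fold and Peg10 2.15-fold lower in SE KO RA than in RA, and Dlk1 was 3.04-fold and Rian 2.98-fold higher. The members' median was -0.62 against -0.035 over all genes tested.

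H19 had 78 and 73 counts in RA and 7 and 6 in SE KO RA (log2 fold change -3.54, SE 0.46, adjusted p = 3.15e-07). Peg10 had 1118 and 1147 CPM in RA and 515 and 538 in SE KO RA (log2 fold change -1.11, SE 0.18, adjusted p = 9.15e-05). Dlk1 rose from 5.90 and 6.52 to 19.03 and 18.8 CPM (log2 fold change 1.61, SE 0.34, adjusted p = 0.000589). In each case both SE KO libraries, including the one with the conflicting genotype label, lay on the same side of both RA libraries.

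Plagl1 had 11.5 and 12.5 CPM in RA and 4.05 and 5.33 in SE KO RA (log2 fold change -1.35, adjusted p = 4.16e-06). Igf2 had 22 and 25 counts in SE KO RA against 64 and 48 in RA (log2 fold change -1.28, adjusted p = 0.0113), and Rian had 33 and 21 against 10 and 8 (log2 fold change 1.55, adjusted p = 0.0247). Mest lay at 101 and 108 CPM against 52.1 and 54.4, just under the size threshold (log2 fold change 0.97, adjusted p = 9.72e-10). Without SE KO RA replicate 1, 5 members were called: H19 at a log2 fold change of -3.72, Plagl1 at -1.17, Peg10 at -1.07, Dlk1 at 1.60 and Mest at 1.02. Igf2 (-1.25, adjusted p = 0.066) and Rian (1.12, adjusted p = 0.23) were then not called. The calls of these 2 genes were also lost without libraries whose labels do not conflict, for Igf2 without RA replicate 1 (adjusted p = 0.0992) or SE KO RA replicate 2 (0.061) and for Rian without RA replicate 1 (0.0861) or 2 (0.126). Under DESeq2 neither Dlk1 (adjusted p = 0.0849) nor Rian (adjusted p = 0.0605) was called. Primitive endoderm markers summed to 62.9 to 67.2 CPM in SE KO RA, 105 to 109 in RA and 137 to 142 in DUX KD RA, but within that list Foxa2 was highest, and Gata4 and Pdgfra were lowest, in RA among these 3 groups. Neuroectoderm markers summed to 106 to 108 CPM in SE KO RA against 61.01 to 63.6 in RA, most of it Nes (84.5 against 52.2 CPM). Mesoderm markers summed to 13.2 to 13.6 CPM against 4.52 to 6.21. Fibroblast markers summed to 167 to 181 CPM in SE KO RA and 96.4 to 98.97 in DUX KD RA, on either side of RA. The higher sum in SE KO RA lay in Pdgfrb (108 against 58.4 CPM in RA) and Col1a1 (22.9 against 8.32). Thy1 (15.7 against 32.4 CPM), Col1a2, Fbn1 and Col6a3 were lower in SE KO RA than in RA. The part of these cell types in the results was not tested.

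**Figure D3:**
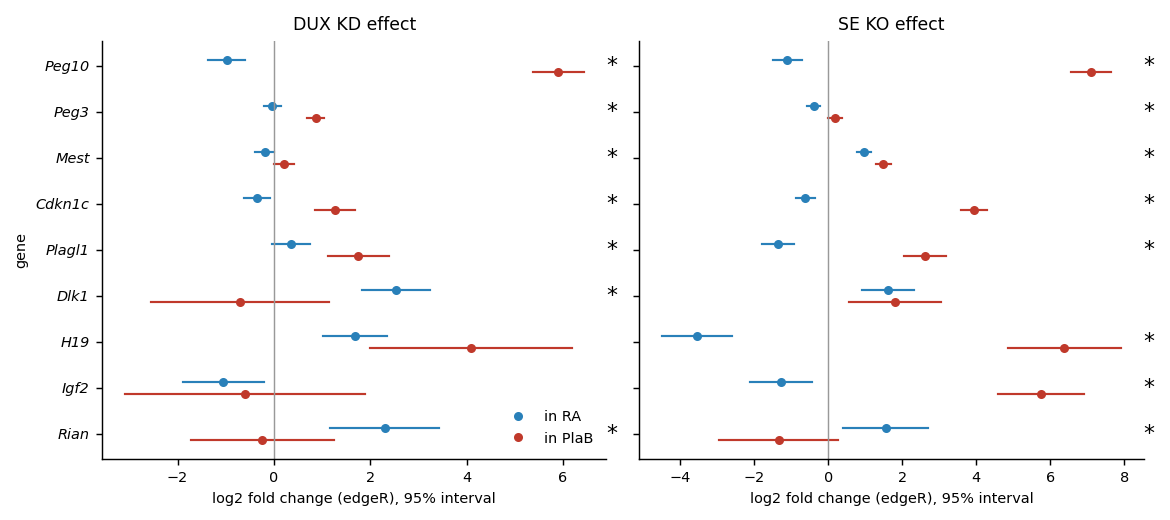
Effect of DUX KD and of SE KO on each imprinted gene under RA and under PlaB, as log2 fold changes from edgeR with 95% intervals. A star marks a gene whose effect differed between PlaB and RA at an adjusted p under 0.05. Peg10 lies at -0.98 and -1.11 under RA and at 5.91 and 7.11 under PlaB, and with SE KO H19 lies at -3.54 under RA and at 6.38 under PlaB.

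The difference between the 2 inductions was tested directly, as the knockdown or knockout effect in PlaB minus that in RA. For DUX KD it passed at an adjusted p under 0.05 for 7 of 9 members, and for SE KO for 8 of 9 (7 without SE KO RA replicate 1), in contrasts that 65.8% and 62.9% of all genes passed. Peg10 had the largest difference with DUX KD, 6.89 on the log2 scale (edgeR, adjusted p = 1.34e-12), and H19 with SE KO, 9.92 (adjusted p = 2.24e-11). H19 and Igf2 with DUX KD (2.41, adjusted p = 0.0691, and 0.45, adjusted p = 0.826) and Dlk1 with SE KO (0.20, adjusted p = 0.824) did not pass. The shares of all genes were about as high, so the members' counts are near the background.

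Overexpression was compared with untreated ESC. With ZSCAN4 OE against ESC, 2 members rose and 0 fell, where 11.7% of all genes were called (7.28% higher, 4.4% lower). Plagl1 rose 2.06-fold, from 5.92 and 7.07 CPM in ESC to 13.5 and 13.2 (log2 fold change 1.04, SE 0.21, adjusted p = 0.000222), and its log2 fold change was 0.93 without ESC replicate 1. Rian had 1 and 0 counts in ESC and 12 and 11 in ZSCAN4 OE, a count ratio of 21.1 with an exact 95% counting interval of 3.43 to 869 (adjusted p = 0.00194), with its fitted log2 fold change going from 4.16 to 6.78 without ESC replicate 1. For both genes the 2 ZSCAN4 OE libraries were above the 2 ESC libraries. Cdkn1c was at 6.21 and 6.03 CPM against 3.49 and 3.47 (log2 fold change 0.81, adjusted p = 0.00121), under the size threshold.

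The libraries labelled DUX KD ZSCAN4 OE, in which Zscan4c was below its ESC level, had 2 members lower and 0 higher than ZSCAN4 OE (11.2% of all genes called, 5.37% lower and 5.81% higher). Cdkn1c went from 6.21 and 6.03 CPM to 1.95 and 2.94, 2.51-fold lower (log2 fold change -1.34, SE 0.21, adjusted p = 1.09e-05). Mest went from 45.5 and 45.7 to 18.1 and 22.5 CPM, 2.25-fold lower (log2 fold change -1.17, SE 0.11, adjusted p = 6.83e-10). Neither gene's groups overlapped. The replicates labelled DUX KD ZSCAN4 OE also differed widely (chi-square per degree of freedom 26.1), so SE and adjusted p may understate their spread. Since Zscan4c differed as well as Duxf3, the lower Duxf3 and the lower Zscan4c levels cannot be told apart here. Plagl1, at 11.6 and 10.4 CPM, stayed above both ESC libraries (log2 fold change -0.28, adjusted p = 0.318 against ZSCAN4 OE).

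DUX OE against ESC called 0 of the 9 members in edgeR, with 9.53% of all genes called (7.39% higher, 2.14% lower). An unadjusted p under 0.05 was reached by 3 members, and DESeq2 also called 0. Peg10 lay at 354 and 374 CPM against 525 and 533 in ESC (log2 fold change -0.54, adjusted p = 0.0368), Mest at 37.8 and 45.96 against 52.9 and 49.8 (log2 fold change -0.29, adjusted p = 0.0273) and Cdkn1c at 5.03 and 4.93 against 3.49 and 3.47 (log2 fold change 0.52, adjusted p = 0.0607). None of the 3 reached the size threshold. Their DUX OE and ESC libraries did not overlap, but the share of all genes without overlap was not worked out.

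The libraries labelled DUXR70A OE, in which no Duxf3 count was found, had 2 members higher and 1 lower than ESC, where 17% of all genes were called (10.3% higher, 6.74% lower). Cdkn1c rose 3.48-fold, from 3.49 and 3.47 CPM to 12.8 and 11.4 (log2 fold change 1.80, SE 0.18, adjusted p = 1.75e-09), but set against DMSO its log2 fold change was -0.20. Mest fell 2.08-fold, from 52.9 and 49.8 to 26.1 and 23.4 CPM (log2 fold change -1.05, SE 0.10, adjusted p = 9.98e-10). It was -0.82 under library-size scaling and -0.98 without DUXR70A OE replicate 2, under the size threshold both times. Rian had 6 and 4 counts against 1 and 0, a count ratio of 8.99 with an exact 95% counting interval of 1.28 to 390.2 (adjusted p = 0.0486), and was not called under DESeq2 (adjusted p = 0.103), without the low-count filter (adjusted p = 0.0786), with the replicate block (adjusted p = 0.0542) or without any 1 of the 4 libraries. Peg3 passed the p threshold (132 and 139 CPM against 81.2 and 76.4, log2 fold change 0.78, adjusted p = 1.77e-08).

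Between the libraries labelled DUXR70A OE and those of DUX OE, 1 member was called higher and 0 lower, with 13.6% of all genes called (6.12% higher, 7.51% lower). Cdkn1c was 2.43-fold higher in the libraries labelled DUXR70A OE (12.8 and 11.4 CPM) than in DUX OE (5.03 and 4.93), without overlap (log2 fold change 1.28, SE 0.17, adjusted p = 6.15e-07). Mest (-0.76), Peg3 (0.69) and Plagl1 (0.59) had log2 fold changes that passed on p alone.

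SE KO in DUX OE cells called 1 member higher and 0 lower, with 6.32% of all genes called (2.49% higher, 3.84% lower). H19 had 1 and 0 counts in DUX OE and 8 and 15 in SE KO DUX OE, a count ratio of 9.61 with an exact 95% counting interval of 1.56 to 396 (adjusted p = 0.0393). The groups did not overlap, but the call was lost under DESeq2 (adjusted p = 0.103) and without 3 of the 4 libraries in turn (fitted log2 fold changes between 2.16 and 5.78, the latter without DUX OE replicate 1, against 3.06 with all). Plagl1 was at 9.03 and 8.02 CPM against 4.74 and 5.07 (log2 fold change 0.80, adjusted p = 0.00804). The 12 fibroblast markers summed to 142 to 147 CPM in SE KO DUX OE and 66.5 to 70.9 in DUX OE, and their part was not tested.

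The controls differed from each other. DMSO against untreated ESC had 1 member higher and 2 lower, with 16.3% of all genes called (8.36% higher, 7.96% lower). Cdkn1c was 4.01-fold higher in DMSO, at 12.6 and 15.3 CPM against 3.49 and 3.47 (log2 fold change 2.00, SE 0.18, adjusted p = 1.81e-10). Plagl1 was 2.03-fold lower, at 2.89 and 3.51 CPM against 5.92 and 7.07 (log2 fold change -1.01, adjusted p = 0.00112), and H19, with 0 and 0 counts against 4 and 3, was at least 1.34-fold lower (adjusted p = 0.0174). Leaving out single libraries lost the H19 call (adjusted p between 0.0661 and 0.0862 without ESC replicate 1 or either DMSO replicate) and the Plagl1 call (log2 fold change -0.88 without ESC replicate 2 or DMSO replicate 1). The Plagl1 call was also lost under library-size scaling (-0.94) and without the low-count filter (-0.96), both of which brought Peg10 past the size threshold, so that 2 members were higher and 1 lower. Peg10 was at 1012 and 1032 CPM in DMSO and 525 and 533 in ESC, a difference just under the size threshold (log2 fold change 0.95, adjusted p = 0.000383). With ESC as the control of RA, Peg10 passed the size threshold too, at a log2 fold change of 1.10.

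The wider set of 79 other imprinted genes, of which 78 were in the table and 67 were tested, is given beside the members. With RA, 28 rose and 9 fell, with a median log2 fold change of 0.64, and 55.2% of the list was called against 31% of all genes. With PlaB, 25 rose and 16 fell, with a median of 0.31 beside 0.224 over all genes, whereas the members' median was -1.28, and the 61.2% called was near the 58.9% of all genes. SE KO PlaB had 15 higher and 19 lower than PlaB (median -0.29), and DUX KD PlaB 13 higher and 23 lower (median -0.29), whereas no member was called lower in either. The shares called, 50.7% and 53.7%, were near the 52% and 54.9% of all genes. In the remaining 9 comparisons between 2 and 11 were called higher and between 1 and 11 lower. Shares of the list called, each against that of all genes, were as follows. Against ESC they were 14.9% (11.7%) for ZSCAN4 OE, 8.96% (9.53%) for DUX OE, 26.9% (17%) for DUXR70A OE and 20.9% (16.3%) for DMSO. DUXR70A OE against DUX OE had 14.9% (13.6%) and SE KO DUX OE 4.48% (6.32%). SE KO RA had 25.4% (17.6%), DUX KD RA 19.4% (11%) and DUX KD ZSCAN4 OE 25.4% (11.2%).

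Kcnq1ot1, the long noncoding RNA of the domain that holds Cdkn1c, rose with PlaB from 2.98 ± 0.0466 CPM (SD, n = 2) in DMSO to 116 ± 9.26 (log2 fold change 5.28, adjusted p = 9.75e-11), while Cdkn1c fell. It was at 4.60 ± 0.248 CPM in DUX KD PlaB (log2 fold change -4.65, adjusted p = 3.21e-10) and at 20.95 ± 10.2 in SE KO PlaB (log2 fold change -2.47, adjusted p = 1.78e-07). Kcnq1ot1 is antisense to Kcnq1 and the strand setting is not stated, so reads of the 2 genes cannot be told apart. Cobl, an actin nucleator, followed the course of Peg10, from 398 ± 11.6 CPM in DMSO to 26.02 ± 0.357 in PlaB (log2 fold change -3.93, adjusted p = 4.8e-26), 277 ± 3.95 in DUX KD PlaB and 403 ± 14.6 in SE KO PlaB. Sgce, which shares a start region with Peg10 and was looked up after its values were seen, was at 12.2 ± 1.01 CPM in DMSO and 14.9 ± 0.406 in PlaB (log2 fold change 0.29, adjusted p = 0.114), with no fall of the kind seen in Peg10.

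Dio3, a thyroid hormone deiodinase gene at the far end of the Dlk1 domain, rose with RA from 0.642 ± 0.0549 CPM to 9.14 ± 0.840 (log2 fold change 3.82, adjusted p = 1.12e-10). In SE KO RA it was lower than in RA, at 2.19 ± 0.649 CPM (log2 fold change -2.06, adjusted p = 5.29e-07), where Dlk1 and Rian were higher. Zfp264, a zinc finger gene of the Peg3 domain, was at 1.09 ± 0.144 CPM in DMSO and 13.96 ± 0.623 in ESC (log2 fold change -3.67, adjusted p = 1.9e-15), and at 2.50 ± 0.0515 in SE KO RA against 14.6 ± 0.0661 in RA (log2 fold change -2.54, adjusted p = 4.04e-14). Phlda2, a placental growth restrainer near Cdkn1c, was at 56.99 ± 2.04 CPM in DMSO and 15.1 ± 0.689 in ESC (log2 fold change 1.92, adjusted p = 5.32e-13).

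Among 18 factors that maintain imprints or add and remove DNA methylation, 17 were tested. With RA, 0 rose and 9 fell (median -1.01), or 52.9% called against 31% of all genes, of which 10.4% fell. With PlaB, 1 rose and 10 fell (median -1.24), and the 64.7% called was near the 58.9% of all genes, of which 26.6% fell. Trim28, the corepressor that ZFP57 recruits, went from 1506 ± 9.70 CPM in DMSO to 206 ± 3.24 in PlaB (log2 fold change -2.87, adjusted p = 1.4e-20), and Dnmt1, the maintenance methyltransferase, from 434 ± 19.1 to 108 ± 6.53 (log2 fold change -2.01, adjusted p = 1.71e-20). Dppa3, which limits maintenance methylation in the early embryo, was the 1 that rose, from 1.42 ± 0.400 to 11.4 ± 0.757 CPM (log2 fold change 3.00, adjusted p = 3.95e-10). DUX KD PlaB had 8 higher and 3 lower than PlaB (median 0.81), with Trim28 at 1357 ± 3.89 CPM, and SE KO PlaB had 7 higher and 1 lower (median 0.71), with Trim28 at 1599.5 ± 374. These were 64.7% and 47.1% of the list, where 54.9% and 52% of all genes were called.

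**Figure D4:**
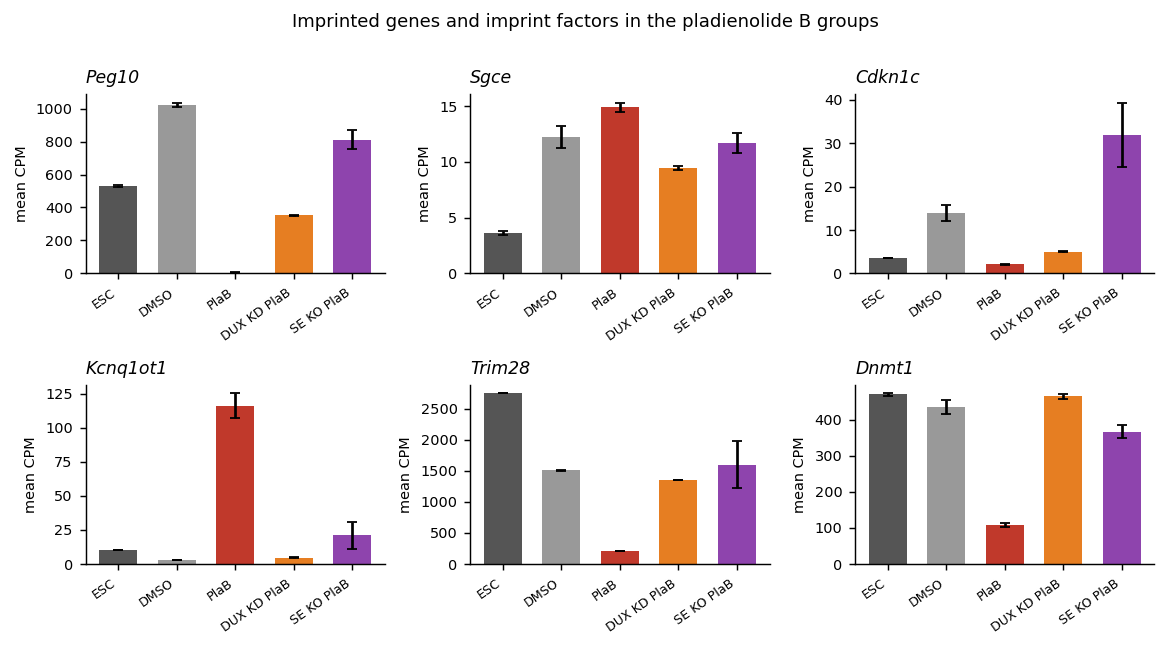
Levels of Peg10, its neighbour Sgce, Cdkn1c, Kcnq1ot1, Trim28 and Dnmt1 in the ESC, DMSO, PlaB, DUX KD PlaB and SE KO PlaB groups, as mean CPM on linear axes from 0, with error bars of 1 SD (n = 2). Trim28 is at 1506 ± 9.70 CPM in DMSO and 206 ± 3.24 in PlaB, and Kcnq1ot1 is at 2.98 ± 0.0466 and 116 ± 9.26 CPM in the same groups, the opposite order to Cdkn1c.

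With RA, Dnmt3l, the cofactor of de novo methylation, went from 57.4 ± 1.58 to 9.56 ± 0.184 CPM (log2 fold change -2.59, adjusted p = 4.37e-11) and the 5-methylcytosine oxidase gene Tet1 from 732 ± 16.01 to 130.5 ± 4.53 (log2 fold change -2.49, adjusted p = 2.2e-15). Zfp57 itself was lower in SE KO RA than in RA (37.3 ± 0.381 against 105 ± 3.60 CPM, log2 fold change -1.50, adjusted p = 3.09e-14), in DUX OE than in ESC (124 ± 0.0338 against 309.6 ± 0.893, log2 fold change -1.32, adjusted p = 1.72e-13) and in DUX KD PlaB than in PlaB (206 ± 5.62 against 476 ± 16.5, log2 fold change -1.21, adjusted p = 5.18e-14). In the remaining comparisons between 0 and 4 of the 17 factors were called higher and between 0 and 2 lower. Shares of the factors called, each against that of all genes, were as follows. Against ESC they were 5.88% (11.7%) for ZSCAN4 OE, 17.6% (9.53%) for DUX OE, 17.6% (17%) for DUXR70A OE and 11.8% (16.3%) for DMSO. DUXR70A OE against DUX OE had 5.88% (13.6%) and SE KO DUX OE 11.8% (6.32%). SE KO RA had 23.5% (17.6%), DUX KD RA 23.5% (11%) and DUX KD ZSCAN4 OE 5.88% (11.2%).

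Other genes of the wider set that met the rule for naming changed in several comparisons. Xlr3b, from a family of X-linked genes with near-identical copies, among which reads may be split, had 0.0274 ± 0.0388 CPM in DMSO, 1.57 ± 0.478 in RA and 6.91 ± 0.178 in PlaB (adjusted p = 1.7e-07 and 5.7e-13). With DUX KD added to RA it reached 7.09 ± 0.613 CPM (log2 fold change 2.17, adjusted p = 1.54e-06), it was higher in ZSCAN4 OE than in ESC (log2 fold change 2.47, adjusted p = 0.000137), and lower in SE KO PlaB than in PlaB (log2 fold change -3.12, adjusted p = 9.08e-10). Peg12 was lower in SE KO PlaB than in PlaB (log2 fold change -3.20, adjusted p = 1.99e-13), and Magel2 in DUX KD PlaB than in PlaB (log2 fold change -3.50, adjusted p = 1.15e-08). Ampd3, an AMP deaminase gene, was lower in PlaB than in DMSO (log2 fold change -2.21, adjusted p = 5.86e-11) and higher in DUX KD PlaB than in PlaB (log2 fold change 2.28, adjusted p = 3.51e-11).

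Against ESC, Ddc, the gene of dopa decarboxylase, was lower in ZSCAN4 OE (log2 fold change -2.08), DUX OE (-1.33) and the libraries labelled DUXR70A OE (-2.13), comparisons that share the ESC libraries. Qpct, a glutaminyl cyclase gene, was higher in the same 3 (2.16, 1.09 and 2.73). Dppa3 was higher in these 3 (3.38, 1.62 and 1.40) and in DMSO (1.37) as well. The transporter gene Slc22a18 was higher in DMSO (2.25) and in the libraries labelled DUXR70A OE (2.25). With RA, Pon2 fell (-1.69), and in DUX KD RA against RA Grb10, an adaptor that restrains insulin and IGF receptor signalling, was higher (1.31) and Nnat lower (-1.73). Dhcr7, of cholesterol synthesis, was higher in SE KO RA than in RA (1.33). Between the libraries labelled DUXR70A OE and DUX OE, Gatm was higher (1.35) and Sfmbt2 lower (-1.20).

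Of the maintenance factors, Tet2 was lower in DUX OE than in ESC (log2 fold change -1.66) and higher with DUX KD under RA than with RA alone (1.82). Ctcf, the insulator protein gene, was higher in SE KO PlaB than in PlaB (2.03), and its paralog Ctcfl was higher in SE KO RA than in RA (1.23) and lower in SE KO DUX OE than in DUX OE (-1.32). All changes named here had an edgeR adjusted p under 0.05.

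The third list held 20 partners of the members' products, such as IGF receptors and binding proteins, IGF2 mRNA binding proteins, cyclins and the kinases that p57 inhibits, with 19 tested. With PlaB, 2 rose and 10 fell (median -1.02), 63.2% of the list against 58.9% of all genes, among them the receptor genes Igf1r (log2 fold change -1.40) and Insr (-2.48), Igf2bp2 (-3.43) and Ccnd1, a cyclin that drives entry into the cell cycle (-2.79). These 4 genes, like others of this list, were picked after their values were seen. DUX KD PlaB had 10 higher and 3 lower than PlaB (median 1.03), and SE KO PlaB 10 higher and 2 lower (median 1.003). That is 68.4% and 63.2% of the list, where 54.9% and 52% of all genes were called. With RA, 6 rose and 4 fell (median -0.05), 52.6% of the list against 31% of all genes. Igfbp5, picked in the same way, which binds IGFs outside the cell, rose from 0.978 ± 0.142 to 120.0 ± 1.10 CPM (log2 fold change 6.93, adjusted p = 8.52e-22). DUX KD RA had 0 higher and 7 lower than RA, 36.8% of the list against 11% of all genes. The other 8 comparisons had between 0 and 2 higher and between 0 and 4 lower. Shares against ESC, with those of all genes, were 10.5% (11.7%) for ZSCAN4 OE, 21.1% (9.53%) for DUX OE, 26.3% (17%) for DUXR70A OE and 5.26% (16.3%) for DMSO. DUXR70A OE against DUX OE had 26.3% (13.6%), SE KO DUX OE 10.5% (6.32%), SE KO RA 5.26% (17.6%) and DUX KD ZSCAN4 OE 15.8% (11.2%).

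Likeness of patterns was measured as Pearson's r of log2 CPM over the 13 group means, as a description only, since these points come from 1 cell line and some share a treatment or a genotype. Among 13369 or 13370 genes per member, Peg10 was most like Rybp (r = 0.982) and Basp1 (0.979), Dlk1 like Zfp703 (0.961) and Cyp26b1 (0.953), and Plagl1 like Cggbp1 (0.962) and Cpeb4 (0.914). Cdkn1c was most like Castor2 (0.949) and Avl9 (0.94), Igf2 like L3mbtl3 (0.943) and Dock10 (0.929), and Peg3 like Adcy9 (0.921) and Dmxl2 (0.912). H19 was most like Pmepa1 (0.91) and the endoderm factor gene Foxa2 (0.909), Mest like Adad2 (0.918) and Suv39h1 (0.876), and Rian like Tmem68 (0.901) and Chn2 (0.887). Between members, r was 0.823 for Dlk1 and Cdkn1c, 0.797 for H19 and Igf2 and 0.761 for Igf2 and Cdkn1c over the same 13 means.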

How the data were processed

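Poly(A) RNA-seq of 26 libraries was used as deposited by the authors, as whole-number counts per gene without normalization. Submitters' processing notes name FastQC, Trimmomatic, STAR, featureCounts, DESeq2 and the build mm10. The strand setting and the treatment of reads with several hits are not given in the sources used here. Of 53292 table genes named in GENCODE M21, 99.3% had the same span there. Groups follow the sample labels. Members and gene lists were chosen with earlier results of these data known. Named genes were all members, Duxf3 and Zscan4c as checks of labels, and, by rule, per comparison the 2 genes called with the strongest rise and the 2 with the strongest fall from the lists of other imprinted genes and maintenance factors (average log2 CPM of at least 1), and the 2 genes most like each member. Sgce and the genes named from the list of partners were chosen after their values were seen. Not every value of a gene that met the rule is printed.

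Counts were tested with edgeR 4.0.16 (R 4.3.3), quasi-likelihood F-test, TMM, filterByExpr (20953 genes kept) and prior count 0.125, in 1 model of all libraries. Alternatives were RLE or library-size scaling, no filter, DESeq2 1.42.0, only the 2 groups compared, replicate block, adjusted p alone, the other control group and leaving out each library. The control swap for single members, and the alternatives for the wider lists, were added after the data were seen. Replicates differed beyond sampling noise (chi-square per degree of freedom 1.55 to 30.2). The highest values were those of SE KO PlaB (30.2) and DUX KD ZSCAN4 OE (26.1). Code was tested on simulated data.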

Additional observations from a re-analysis of the deposited data

Results flagged for a closer look

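Values were singled out where the effect of DUX KD or SE KO differed between PlaB and RA by a test of the difference itself (interaction contrast in edgeR, adjusted p under 0.05). All values are the log2 effect in PlaB minus that in RA. They share the RA and PlaB libraries of the effects described above, and 65.8% of all genes for DUX KD and 62.9% for SE KO passed the same test.

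For DUX KD, the difference was 6.89 for Peg10 (adjusted p = 1.34e-12), 1.62 for Cdkn1c (9.05e-07), 1.39 for Plagl1 (0.00156), 0.90 for Peg3 (1.9e-07) and 0.40 for Mest (0.0125). It was negative for 2 genes of the chromosome 12 domain, at -3.24 for Dlk1 (0.00512) and -2.55 for Rian (0.0161). For SE KO, the difference was 9.92 for H19 (adjusted p = 2.24e-11), 8.21 for Peg10 (1.36e-13), 7.03 for Igf2 (5.8e-10), 4.55 for Cdkn1c (1.26e-17), 3.97 for Plagl1 (2.15e-11), 0.56 for Peg3 (0.000236) and 0.51 for Mest (0.00137), and it was -2.89 for Rian (0.0105). The fitted values of H19 and Igf2 rest on PlaB libraries with 0 to 4 counts and depend on the prior count. Each value rests on edgeR's test with 2 replicates per group.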

How the results depend on the processing

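Of 45 called effects of the members, 26 held under every alternative run, 16 were lost or reversed under at least 1, and 3 held wherever they were tested but were removed by the low-count filter when only the 2 groups compared were fitted. Those 3 were Rian in RA, Rian in PlaB and H19 in DUX KD PlaB against PlaB. A further 3, all among the 16, were removed in the same way, Rian in DUXR70A OE against ESC and H19 in SE KO DUX OE against DUX OE and in DMSO against ESC. Of all 1180 alternative values, 1070 kept their direction and side of the threshold. The sign changed for 40 values with no call in either fit. With a call in at least 1 fit, it reversed for H19 in PlaB with ESC in place of DMSO (-2.96). It also reversed for Dlk1 in ZSCAN4 OE against ESC without ZSCAN4 OE replicate 2 (-6.05, against 1.29 without replicate 1 and 0.40 with both). The other reversals were those of Cdkn1c with DMSO in place of ESC, at -1.19 in ZSCAN4 OE, -1.48 in DUX OE and -0.20 in the libraries labelled DUXR70A OE. In each case the cause was not tested. Counts of members called moved by over 1.5 times as follows. With the other control they were 5 for ZSCAN4 OE against ESC and 4 for DUX OE against ESC. On adjusted p alone they were 2 for DUX OE against ESC, 4 for DUXR70A OE against DUX OE, 2 for SE KO DUX OE against DUX OE and 6 for DMSO against ESC. For SE KO DUX OE against DUX OE the count was 0 under DESeq2 and 0 with only the 2 groups compared. Leaving out single libraries gave 1 to 3 for ZSCAN4 OE against ESC, 1 to 2 for DUXR70A OE against ESC, 0 to 1 for SE KO DUX OE against DUX OE and 1 to 2 for DMSO against ESC. The share of all genes called was not worked out for the other control, for adjusted p alone or with single libraries left out. Whether these counts of members exceed the background is therefore not known.

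Replicate numbers did not pair the samples (correlations of same-numbered deviations between -0.0473 and 0.0237). With replicate number as a block, the calls of Rian in DUXR70A OE against ESC (adjusted p = 0.0542) and Igf2 in DUX KD RA against RA (adjusted p = 0.053) were lost, members called numbered 6 for RA, 6 for PlaB, 2 for DUXR70A OE against ESC and 3 for DUX KD RA, and no other call of a member changed. Scaling by library size alone raised the share of higher calls among all called genes from 66.5% to 76.8% for RA, from 62.4% to 76.6% for ZSCAN4 OE, from 60.4% to 77.5% for DUXR70A OE against ESC and from 44.9% to 58.9% for DUXR70A OE against DUX OE. Depth limits H19, Igf2, Rian and Meg3, whose counts were at or under 3 per library in 2 to 8 of 13 groups. Without the low-count filter, Meg3 passed in 1 comparison, ZSCAN4 OE against ESC (5 and 6 counts against 0 and 0, at least 1.68-fold, adjusted p = 0.0324).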
